A study of Mus musculus with 6 samples.

Results

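Expression of 39 genes that encode heterochromatin and retroelement silencing factors was compared in *Ctrl* mouse embryonic stem cells (mESC) and in *Tet iTKO* mESC, in which deletion of the 3 *Tet* genes had been induced. The genes were taken from a list of named factors of histone H3 lysine 9 (H3K9) methylation, TRIM28, HP1, HUSH, MORC and histone deposition that was drawn up with earlier results of these data known. No measured value entered the rule itself. All 39 were found among the 22380 gene identifiers of the data, and all 39 reached the minimum for the test, a mean over the 6 libraries of 10 normalized counts. The data held 6 Smart-Seq2 RNA-Seq libraries, 3 of *Ctrl* and 3 of *Tet iTKO* mESC. *Ctrl* lines carried CreERT2 (wt/ki) and the Gt(ROSA)26Sor<tm1Ytchn>/J allele (wt/ki), a Cre-dependent H2B-EGFP reporter. *Tet iTKO* lines carried the same 2 alleles and floxed *Tet1*, *Tet2* and *Tet3* on both chromosomes (Tet1/2/3 fl/fl). Both groups were exposed to 1 µM tamoxifen (4-OHT) for 2.5 days and cultured for 4 further days, so that drug and Cre were shared by the controls. The ubiquitin C promoter that drives CreERT2 is active in most cell types. The cells were grown in 2i medium on feeder fibroblasts and sorted at day 6.5 as live CD326+ GFP+ cells without Thy1.2 (CD90.2). Per the study's methods, the 3 lines of each genotype came from different embryos.

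Heterochromatin keeps repeats and retroelements silent. In mESC, KRAB zinc finger proteins bind retroelement DNA and recruit TRIM28, a corepressor modified by SUMO, which brings in the H3K9 methyltransferase SETDB1, and HP1 proteins then bind methylated H3K9. The HUSH complex and MORC ATPases extend or compact this chromatin, while ATRX with DAXX, and the HIRA complex, deposit histone H3.3. TET enzymes oxidize 5-methylcytosine, and DNA methylation and H3K9 methylation silence overlapping sets of repeats.

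The libraries held 3964824 to 4219665 normalized counts each, and 13431 to 14363 identifiers were above 0. Squared differences between replicates of a group were 2.64 to 3.63 times those that counting noise gives, over genes with a mean of at least 50. All libraries were counted as separate samples. Of the targeted genes, *Tet3* had 28, 13 and 13 normalized counts over the *Ctrl* lines, against 10, 3 and 3 in the *Tet iTKO* lines. *Tet1* and *Tet2* were not reduced over the whole gene, where reads of the floxed exons cannot be set apart. *Tet1* had 696, 682 and 716 and then 787, 895 and 753, and passed as higher (log2 fold change 0.21, limma adjusted p = 0.026). It did not pass after the GC and length correction described below (0.07). *Tet2* had overlapping groups (0.14). Pluripotency markers *Pou5f1*, *Nanog*, *Sox2*, *Esrrb*, *Klf4*, *Zfp42*, *Epcam* and *Tfcp2l1* were present in every line. They summed to 11421 to 11783 in *Ctrl* and 10658 to 10975 in *Tet iTKO*. *Esrrb* (log2 fold change 0.29), *Klf4* (0.32) and *Epcam* (0.45) were higher, and *Pou5f1* (-0.29), *Nanog* (-0.30) and *Zfp42* (-0.35) lower. That is 37.5% each way, against 16.4% and 18.4% of all genes tested. After the GC and length correction described below, 1 was higher (against 12.2% of all genes) and 2 lower (against 13.2%). Of 9 feeder fibroblast markers, 4 could be tested and 3 collagens (*Col1a1*, *Col1a2* and *Col3a1*) were higher (75%, against 16.4% of all genes). The 9 summed to 281 to 294 in *Ctrl* and 487 to 560 in *Tet iTKO*. The 5 untested ones stayed between 0 and 15 in every line. Of these, *Postn*, *Lum*, *Dcn* and *Pdgfrb* had overlapping groups, and *Fbn1* had 2, 1 and 2 in *Ctrl* and 15, 10 and 6 in *Tet iTKO*, with no overlap. *Thy1*, the sorted-out marker, had 30, 46 and 41 in *Ctrl* and 47, 35 and 23 in *Tet iTKO*. The 6 primitive endoderm markers summed to 22 to 33 and 25 to 40, and 1 of the 2 that could be tested was higher (against 16.4% of all genes). This was *Gata4*, with 2, 7 and 10 and then 21, 12 and 27 (log2 fold change 1.64, limma adjusted p = 0.030; 1.37 after the GC and length correction described below, limma adjusted p = 0.087). The other, *Sox7*, had 17, 24 and 7 and then 2, 9 and 9. The part of these markers in the values below was not tested.

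Most silencing factors were expressed at similar levels in both groups. *Setdb1* and *Zmym2* were higher in *Tet iTKO* mESC, *Hells*, *Zfp57*, *Morc3*, *Zfp568* and *Mphosph8* were lower, and 32 of 39 did not pass the test (limma on log2(normalized count + 1), Benjamini-Hochberg adjusted p under 0.05 over all 10524 genes tested). That is 5.13% of the factors higher and 12.8% lower. Over all genes tested, 16.4% were higher and 18.4% lower. The log2 fold changes, *Tet iTKO* against *Ctrl*, ran from -0.31 (*Hells*) to 0.54 (*Setdb2*), with a median of 0.05 (-0.07 after the correction described below), against 0.01 over all genes tested. The median size of the change, in either direction, was 0.15 for the factors and 0.29 for all genes. The factors were also more highly expressed, with a median of 350 normalized counts against 137. Values of the groups did not overlap, with *Tet iTKO* above *Ctrl*, for 5 factors (12.8%, against 21.2% of all genes), and with *Tet iTKO* below for 8 (20.5%, against 22.9%). Less RNA per cell and fewer expressing cells cannot be told apart in such bulk libraries.

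**Figure D1:**
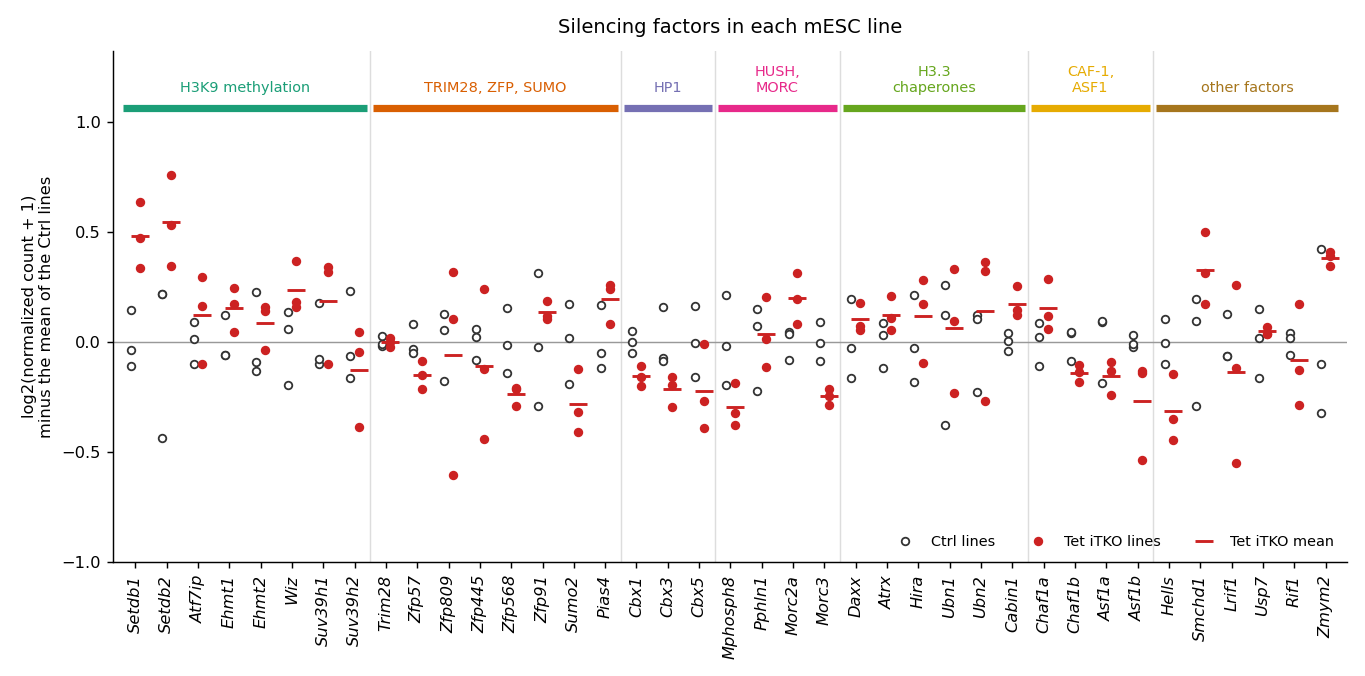
Level of each of the 39 silencing factors in each line, as log2(normalized count + 1) minus the mean of the 3 *Ctrl* lines, grouped by role. Open points are *Ctrl* lines, filled points *Tet iTKO* lines and bars the *Tet iTKO* mean; the 3 *Tet iTKO* points of *Setdb1* lie above all 3 *Ctrl* points, and those of *Hells* and *Morc3* below.

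Of the 32 factors that did not pass, 26 had a 95% interval of the fold change that lay within 1.5-fold either way, and 6 allowed more: *Setdb2*, *Suv39h1*, *Zfp809*, *Lrif1*, *Sumo2* and *Smchd1*. Counted over the main fit and 17 alternatives, 18 factors passed at least once and 21 in none. The same count was not made over all genes.

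GC content and length of the transcripts went with the fold changes of all genes, described across 10457 genes, which are not independent replicates. Spearman's rho was 0.25 with GC content and 0.32 with the length of a representative transcript. By GC content, the median log2 fold change rose from -0.19 in genes under 40% to 0.28 in genes over 60%. A correction of each library for GC content and length, and an alternative of it that also used the expression level and was chosen after seeing the data, were therefore set beside the results. After the first, 2 of 39 factors were higher (against 12.2% of all genes) and 6 lower (against 13.2%). After the second, 2 of 39 were higher (against 11.2% of all genes) and 4 lower (against 12.4%). *Setdb1*, *Hells* and *Zfp568* passed in the same direction in all 3 fits, and *Zmym2* did so too. *Zfp57*, *Morc3* and *Mphosph8* passed in the uncorrected fit but in neither correction. *Trim28* and *Cbx5* passed as lower in both corrections, and *Ehmt2* and *Cabin1* in the first. The first correction turned 11 factors from a positive to a negative value and 6 from negative to positive.

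**Figure D2:**
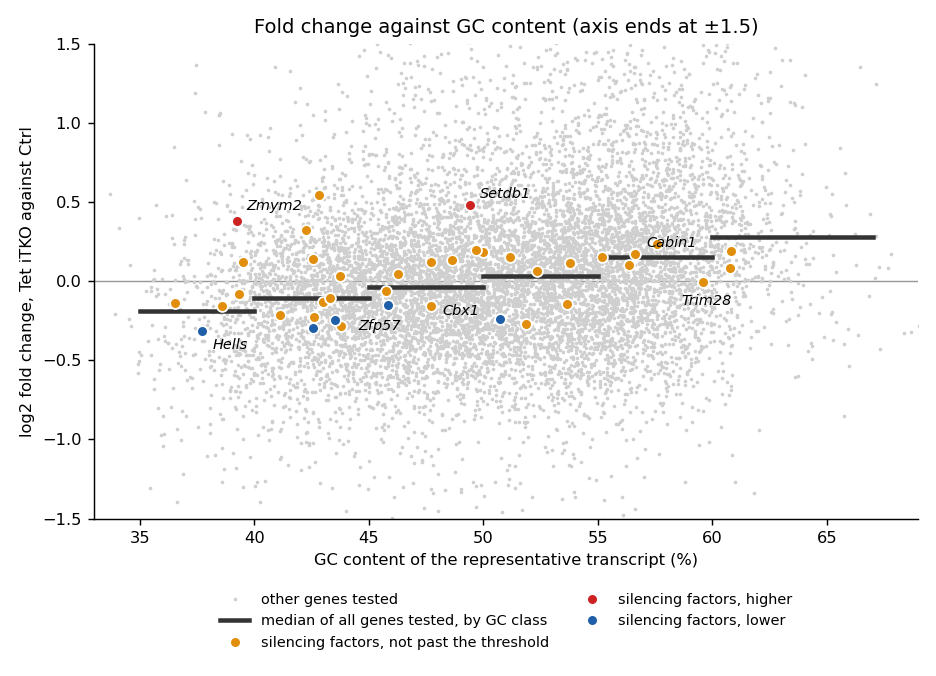
Log2 fold change, *Tet iTKO* against *Ctrl* (vertical axis), against the GC content of the representative transcript in percent (horizontal axis), with 1 point per gene; large points are silencing factors, coloured by the test, and black lines are the medians of all genes tested in each GC class. The medians climb from -0.19 to 0.28, *Setdb1* and *Zmym2* sit above the line of their class, and *Hells* sits below.

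Sequence upstream of the start site is shown for the 2 factors that rose, *Setdb1* and *Zmym2*, and for 2 of the 5 that fell, *Hells* and *Zfp57*. TET enzymes act on methylated cytosine in CpG, and promoters of this group differ widely in CpG content. The 250 bases before each start are given 5′ to 3′ from RefSeq (GRCm38.p6), with CpG in capitals. Methylation itself was not analysed here.
*Setdb1*, chr3:95357203-95357452, minus strand: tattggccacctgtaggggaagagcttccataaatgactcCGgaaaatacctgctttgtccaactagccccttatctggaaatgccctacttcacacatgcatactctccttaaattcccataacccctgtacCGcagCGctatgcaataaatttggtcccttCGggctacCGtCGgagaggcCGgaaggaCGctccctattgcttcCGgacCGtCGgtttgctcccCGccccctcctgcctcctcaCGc
*Zmym2*, chr14:56886353-56886602, plus strand: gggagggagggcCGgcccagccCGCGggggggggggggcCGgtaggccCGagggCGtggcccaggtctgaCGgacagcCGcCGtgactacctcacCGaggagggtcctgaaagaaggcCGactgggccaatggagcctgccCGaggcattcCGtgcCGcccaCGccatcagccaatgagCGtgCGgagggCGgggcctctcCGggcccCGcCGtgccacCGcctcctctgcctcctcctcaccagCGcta
*Hells*, chr19:38930740-38930989, plus strand: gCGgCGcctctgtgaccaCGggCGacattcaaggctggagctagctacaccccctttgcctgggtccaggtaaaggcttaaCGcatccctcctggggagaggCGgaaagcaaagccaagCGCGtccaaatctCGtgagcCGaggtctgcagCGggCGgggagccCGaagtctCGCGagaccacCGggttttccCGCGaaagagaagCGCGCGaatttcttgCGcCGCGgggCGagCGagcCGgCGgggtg
*Zfp57*, chr17:37003416-37003665, plus strand: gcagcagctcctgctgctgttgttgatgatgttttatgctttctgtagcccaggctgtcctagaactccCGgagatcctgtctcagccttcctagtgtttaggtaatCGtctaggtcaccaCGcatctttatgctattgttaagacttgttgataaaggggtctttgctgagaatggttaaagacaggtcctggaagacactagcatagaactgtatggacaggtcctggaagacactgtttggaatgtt

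These stretches held 13 CpG for *Setdb1*, 23 for *Zmym2*, 28 for *Hells* and 3 for *Zfp57*. Promoters (250 bases before to 50 after the start) were matched for 36 of 39 factors and 8334 genes tested. Median GC content was 66.0% for the factors and 61.3% for all genes, and the median number of CpG was 29 against 22. The ratio of observed to expected CpG reached 0.6 in 32 factors (88.9%) and in 77.5% of all genes. The 4 factors below it were *Zfp57*, *Zfp445*, *Atrx* and *Lrif1*. *Zfp57* had the fewest CpG of the matched factors (4). Of the lower factors not shown above, *Morc3* had 20 and *Mphosph8* 28, and no promoter was matched for *Zfp568*. Of motifs searched on both strands, CCAAT lay in 20 factors (55.6%, against 39.5% of all promoters). Among them were the higher *Setdb1* and *Zmym2* and the lower *Morc3* and *Mphosph8*, but not the lower *Hells* and *Zfp57*. The E2F motif TTTCCCGC lay in 1 factor, *Hells* (2.78% against 2.40%). The E2F motif TTTGGCGC lay in 1, *Cbx3* (2.78% against 1.12%). The E-box CACGTG was in 4 (11.1% against 10.9%), the YY1 motif AAGATGGC in 3 (8.33% against 5.34%), the NRF1 motif GCATGCGC in 2 (5.56% against 6.36%) and the ETS motif CCGGAAGT in 2 (5.56% against 9.48%). A match describes the letters only and is not evidence of binding.

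Among the H3K9 methyltransferases and their partners, *Setdb1* (ENSMUSG00000015697.8) rose. Its product trimethylates H3K9 at retroelements. It had 433, 381 and 363 normalized counts over the *Ctrl* lines, against 494, 543 and 609 in the *Tet iTKO* lines. Every *Tet iTKO* line was above every *Ctrl* line. Means were 392 ± 36.4 (SD, n = 3) and 549 ± 57.7 (SD, n = 3), a log2 fold change of 0.48, with a standard error of 0.09 and a limma adjusted p of 9.7e-05. It passed in all 17 alternatives, with 0.37 after the GC and length correction, and leaving out each line in turn gave 0.40 to 0.55. Of the 50-base windows in its transcripts, 9.37% also occur elsewhere in the annotation (*Gm4349*, *Gm37500* and *Cers2*), and such reads can be lost or moved in counting.

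No other gene of this class passed. *Setdb2*, the paralog of *Setdb1*, had 32, 32 and 20 normalized counts over the *Ctrl* lines, against 35, 40 and 47 in the *Tet iTKO* lines. These groups did not overlap either, yet at this level the 95% interval ran from -0.12 to 1.20 around 0.54 on the log2 scale (limma adjusted p = 0.2). *Atf7ip*, which encodes the partner that stabilizes SETDB1, had 419, 398 and 367 in *Ctrl* and 368, 442 and 484 in *Tet iTKO*, with overlapping groups. Its log2 fold change was 0.12 (95% interval -0.08 to 0.32). The H3K9 mono- and dimethyltransferase pair gave 0.15 for *Ehmt1* (95% interval -0.03 to 0.33) and 0.09 for *Ehmt2* (-0.12 to 0.29). After the GC and length correction *Ehmt2* was lower, at -0.36 (limma adjusted p = 0.0045), and with the expression level added it was at -0.19 and did not pass (limma adjusted p = 0.16). *Wiz*, whose product joins the EHMT1 and EHMT2 complex, had 433, 344 and 410 in *Ctrl* and 447, 508 and 439 in *Tet iTKO*. The groups did not overlap, and the log2 fold change of 0.24 lay just outside the threshold (limma adjusted p = 0.056). It was -0.15 after the GC and length correction, and 22.1% of its exon bases are shared with the opposite-strand *Gm26858*. *Suv39h1* and *Suv39h2*, which encode the methyltransferases of pericentromeric repeats, had log2 fold changes of 0.19 and -0.13 with overlapping groups. The 8 genes summed to 2298, 2217 and 2232 in *Ctrl* and to 2453, 2652 and 2676 in *Tet iTKO*, with every *Tet iTKO* sum above every *Ctrl* sum. The median log2 fold change of the class was 0.17 and became -0.08 after the GC and length correction, where *Atf7ip* (-0.12) and *Ehmt1* (-0.08) also turned negative.

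*Trim28*, the corepressor gene, was the most abundant factor and hardly varied. It had 10868, 11228 and 10942 normalized counts over the *Ctrl* lines, against 11136, 11021 and 10836 in the *Tet iTKO* lines. The groups overlapped, and the 95% interval of the log2 fold change was -0.07 to 0.07. Its call changed with the scaling, in both directions. Quantile normalization placed it at 0.15 (limma adjusted p = 0.00093), the GC and length correction at -0.34 (limma adjusted p = 1.4e-09) and the correction with level at -0.18 (limma adjusted p = 7.1e-05).

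Of the zinc finger genes, *Zfp57* and *Zfp568* fell. ZFP57 binds methylated DNA at imprinted loci and recruits TRIM28. *Zfp57* (ENSMUSG00000036036.9) had 1831, 1807 and 1982 normalized counts over the *Ctrl* lines, against 1688, 1613 and 1762 in the *Tet iTKO* lines. All *Tet iTKO* lines were below all *Ctrl* lines, at 90.1% of the *Ctrl* mean (log2 fold change -0.15 with a standard error of 0.06 and a limma adjusted p of 0.038). The value was -0.02 after the GC and length correction. *Zfp568* (ENSMUSG00000074221.4), whose product represses a placental *Igf2* transcript, had 501, 409 and 447 in *Ctrl* and 389, 390 and 368 in *Tet iTKO*. The groups did not overlap (log2 fold change -0.24 with a standard error of 0.09 and a limma adjusted p of 0.047), and after the GC and length correction it was at -0.35 (limma adjusted p = 0.0049). The call of *Zfp57* was lost without *Ctrl* line 3 (-0.11), *Tet iTKO* line 1 (-0.15) or *Tet iTKO* line 2 (-0.12). That of *Zfp568* held only without *Ctrl* line 2 (-0.31), and was lost without *Ctrl* lines 1 (-0.16) or 3 (-0.24) and *Tet iTKO* lines 1 (-0.25), 2 (-0.25) or 3 (-0.21).

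The other genes of this class did not pass. *Zfp445*, for another imprint-binding zinc finger protein, had 74, 72 and 67 in *Ctrl* and 84, 65 and 52 in *Tet iTKO*, and *Zfp809*, for a protein that binds the primer site of murine leukaemia virus, had 59, 50 and 62 and then 71, 61 and 37. Both spread more widely among *Tet iTKO* than among *Ctrl* lines. *Zfp91*, for a zinc finger E3 ubiquitin ligase, had a log2 fold change of 0.14, *Sumo2*, for the modifier, -0.28 and *Pias4*, for a SUMO ligase, 0.19 (limma adjusted p = 0.56, 0.17 and 0.087). *Sumo2* is a gene with many processed copies, and 30.2% of its 50-base windows occur in other genes.

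The 3 HP1 genes, whose products read methylated H3K9, had negative log2 fold changes that turned positive for *Cbx1* and *Cbx3* after the GC and length correction, and none passed. *Cbx5* (HP1α) had 678, 610 and 763 normalized counts over the *Ctrl* lines, against 676, 519 and 565 in the *Tet iTKO* lines, with overlapping groups and a log2 fold change of -0.22 that lay at the threshold (limma adjusted p = 0.0503). *Cbx1* (HP1β) had 953, 891 and 922 in *Ctrl* and 853, 826 and 803 in *Tet iTKO*. *Cbx3* (HP1γ) had 289, 246 and 244, and 232, 226 and 211. For both, every *Tet iTKO* line was below every *Ctrl* line, with differences of -0.16 and -0.22 on the log2 scale (limma adjusted p = 0.076 and 0.16). The correction for GC content and length split the family, moving *Cbx5* to -0.32 (limma adjusted p = 0.0046), *Cbx1* to 0.17 and *Cbx3* to 0.08. Transcripts of *Cbx3* share 28.9% of their 50-base windows with other genes, pseudogenes among them.

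Of the 4 HUSH and MORC genes, *Mphosph8* and *Morc3* fell. *Mphosph8* (ENSMUSG00000079184.4), for the HUSH subunit that binds methylated H3K9, had 404, 304 and 343 normalized counts over the *Ctrl* lines, against 268, 278 and 306 in the *Tet iTKO* lines. *Ctrl* line 2 lay just below *Tet iTKO* line 3, so the groups overlapped, and the mean fell to 81.1% of *Ctrl* (log2 fold change -0.29 with a standard error of 0.11 and a limma adjusted p of 0.034). *Morc3* (ENSMUSG00000039456.6), for an ATPase that represses endogenous retroviruses with DAXX, had 429, 458 and 405 in *Ctrl* and 353, 371 and 363 in *Tet iTKO*. Its groups did not overlap (log2 fold change -0.25 with a standard error of 0.09 and a limma adjusted p of 0.036). After the GC and length correction, *Mphosph8* was at -0.12 and *Morc3* at -0.19, and neither passed. *Morc2a*, for the ATPase that works with HUSH, had 324, 354 and 352 in *Ctrl* and 427, 393 and 363 in *Tet iTKO*, higher in every *Tet iTKO* line, with 0.20 on the log2 scale (limma adjusted p = 0.12). *Pphln1*, for the HUSH subunit periphilin, was at 0.03. The call of *Mphosph8* was lost without *Ctrl* lines 1 (-0.19) or 3 (-0.30) and *Tet iTKO* lines 1 (-0.25) or 2 (-0.28). That of *Morc3* was lost without *Ctrl* lines 1 (-0.25) or 2 (-0.20) and without *Tet iTKO* lines 1 (-0.23), 2 (-0.26) or 3 (-0.25).

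The 6 H3.3 chaperone genes had log2 fold changes between 0.07 and 0.17, of which 4 turned negative after the GC and length correction, and none passed. *Atrx* and *Daxx*, which encode the telomere and retroelement chaperone, had 460, 442 and 399, and 440, 484 and 564, in *Ctrl*. In *Tet iTKO* they had 467, 501 and 449, and 513, 519 and 558. Their log2 fold changes were 0.12 (95% interval -0.06 to 0.31) and 0.10 (-0.08 to 0.28). Of the HIRA complex, *Hira* was at 0.12, *Ubn1* at 0.07 and *Ubn2* at 0.14, all with overlapping groups. *Cabin1* had 245, 237 and 251 in *Ctrl* and 266, 270 and 291 in *Tet iTKO*, higher in every *Tet iTKO* line, with 0.17 on the log2 scale (limma adjusted p = 0.24). Its value turned to -0.34 after the GC and length correction (limma adjusted p = 0.018), and to -0.23 with the level added (limma adjusted p = 0.14). Of the *Hira* exon bases, 44.7% also belong to *Gm28539* on the same strand.

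In CAF-1, the assembly factor that deposits histones behind replication forks, the subunits had opposite signs, and both were negative after the GC and length correction (-0.17 and -0.09). *Chaf1a* had 423, 385 and 442 in *Ctrl* and 451, 508 and 433 in *Tet iTKO* (log2 fold change 0.15, limma adjusted p = 0.2). *Chaf1b* had 1175, 1284 and 1290, and 1135, 1099 and 1162, with every *Tet iTKO* line below every *Ctrl* line (log2 fold change -0.14, limma adjusted p = 0.08). Over the exons of *Chaf1a*, 52.5% of bases are shared with *Ubxn6* on the opposite strand, which had 377, 342 and 336 in *Ctrl* and 290, 316 and 283 in *Tet iTKO*. The H3-H4 chaperones had log2 fold changes of -0.15 (*Asf1a*) and -0.27 (*Asf1b*, limma adjusted p = 0.074). *Asf1b* had 284, 287 and 295 in *Ctrl* and 199, 263 and 262 in *Tet iTKO*, with no overlap. *Asf1a* shares 48.0% of its exon bases with the opposite-strand *Mcm9*, at 55, 54 and 45, and 77, 65 and 78. The 20 S phase genes had a median level in *Ctrl* of 1133.5 normalized counts, against 137 over all genes tested. Of them, 4 were higher (20%, against 16.4% of all genes). Another 8 were lower (40%, against 18.4% of all genes and 23.4% of genes with a mean of at least 50). The 20 genes summed to 28169 to 28636 in *Ctrl* and 26673 to 26960 in *Tet iTKO*. Whether this moved the values of replication-linked genes was not tested.

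*Hells* (ENSMUSG00000025001.5) encodes LSH, a remodeler needed for DNA methylation of repeats, and it fell. It had 1222, 1135 and 1062 normalized counts over the *Ctrl* lines, against 1027, 892 and 836 in the *Tet iTKO* lines. All *Tet iTKO* lines lay below all *Ctrl* lines, at 80.6% of the *Ctrl* mean (log2 fold change -0.31 with a standard error of 0.07 and a limma adjusted p of 0.00082). It was at -0.21 after the GC and length correction (limma adjusted p = 0.018), and between -0.40 and -0.25 without each line, and passed in 16 of 17 alternatives.

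*Zmym2* (ENSMUSG00000021945.7), for a zinc finger protein that binds SUMO and the LSD1-CoREST complex, rose. It had 227, 135 and 158 normalized counts over the *Ctrl* lines, against 222, 225 and 215 in the *Tet iTKO* lines. *Ctrl* line 1 was above all *Tet iTKO* lines, and the other two *Ctrl* lines were below them. Its log2 fold change was 0.38, with a standard error of 0.15 and a limma adjusted p of 0.04. It was 0.59 without *Ctrl* line 1, and the call was lost without *Ctrl* line 2 (0.22) or 3 (0.33) and without *Tet iTKO* line 1 (0.38), 2 (0.37) or 3 (0.40). *Smchd1*, for the SMC protein of the inactive X, had 180, 168 and 128 in *Ctrl* and 222, 195 and 177 in *Tet iTKO*, with overlapping groups (log2 fold change 0.33, limma adjusted p = 0.078). *Lrif1*, for a partner of HP1 and SMCHD1, had 31, 27 and 27 and then 19, 26 and 34. *Usp7*, for a deubiquitinase, and *Rif1*, for a replication timing factor, were at 0.05 (95% interval -0.11 to 0.21) and -0.08 (-0.26 to 0.09).

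**Figure D3:**
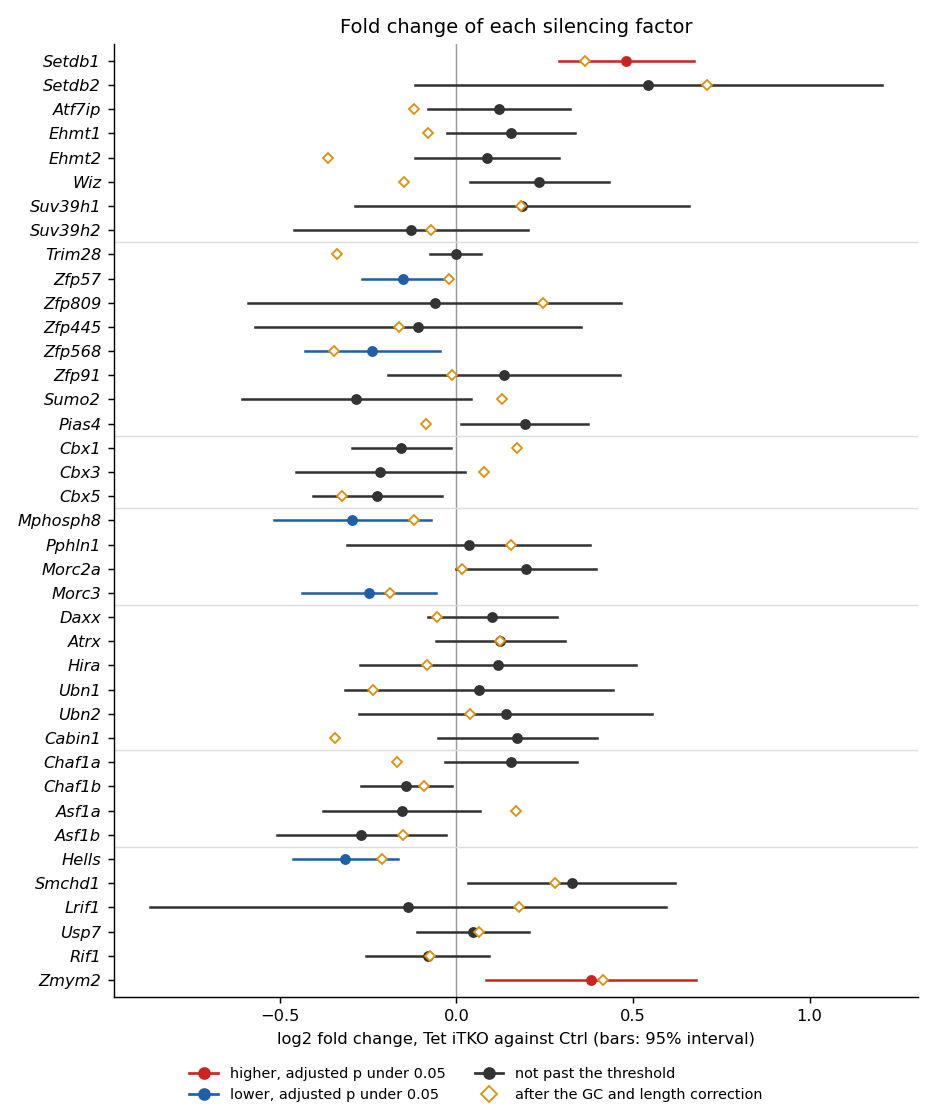
Log2 fold change, *Tet iTKO* against *Ctrl*, of each of the 39 silencing factors (filled points) with its 95% interval (bars), in the order of their roles, and the value after the GC and length correction (open diamonds). The *Setdb1* interval runs from 0.29 to 0.67 and that of *Hells* from -0.46 to -0.17, while the *Trim28* diamond at -0.34 lies outside its interval of -0.07 to 0.07.

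Per kilobase of the representative transcript, the levels fell into a few well separated genes and a long run of close ones. *Trim28* had a *Ctrl* mean of 3394 normalized counts per kilobase, above 99.0% of all genes tested. *Cbx1* (737) and *Zfp57* (721) came next and overlapped each other, followed by *Chaf1b* (650.2). *Hells* (194), *Pias4* (190.7), *Daxx* (186) and *Usp7* (178) formed the next group, with overlapping ranges. At the other end were *Zfp445* (11.5), *Setdb2* (9.35), *Lrif1* (9.13) and *Ubn2* (5.80, above 11.99% of all genes). Of the 38 neighbours in the *Ctrl* order, 28 had overlapping ranges over the 3 lines, so most ranks are not resolved. *Setdb1* stood at 84.2 per kilobase in *Ctrl* and 117.8 in *Tet iTKO*, and *Hells* at 194 and 156.

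Ratios between factors of the same library do not depend on its size factor. Of 15 log2 ratios of paralogs or partners, 3 did not overlap between groups. Ratios of other genes were not computed, so no share over all genes can be set beside this count. *Setdb1* to *Atf7ip* was 0.05, -0.06 and -0.02 in *Ctrl* and 0.42, 0.30 and 0.33 in *Tet iTKO*, a difference of 0.36. *Trim28* to *Setdb1* was 4.65, 4.88 and 4.91 in *Ctrl* and 4.49, 4.34 and 4.15 in *Tet iTKO*, a difference of -0.48. Both this ratio and the one to *Atf7ip* contain *Setdb1*, so they are not separate from the change of that gene. *Chaf1a* to *Chaf1b* was -1.47, -1.74 and -1.54, and -1.33, -1.11 and -1.42, a difference of 0.30 that became -0.08 after the GC and length correction. Each had an exact two-sided permutation p of 0.1, the smallest that 3 lines against 3 allow, and an adjusted p of 0.5 over the 15 ratios. No ratio could therefore reach 0.05. The HP1 paralogs (*Cbx1* to *Cbx3*, *Cbx1* to *Cbx5* and *Cbx3* to *Cbx5*) differed by 0.06, 0.07 and 0.01 with overlapping groups, and *Ehmt1* to *Ehmt2* by 0.07. After the correction, *Cbx1* to *Cbx5* differed by 0.50 and *Cbx3* to *Cbx5* by 0.40, with no overlap. *Setdb1* to *Setdb2* differed by -0.06.

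**Figure D4:**
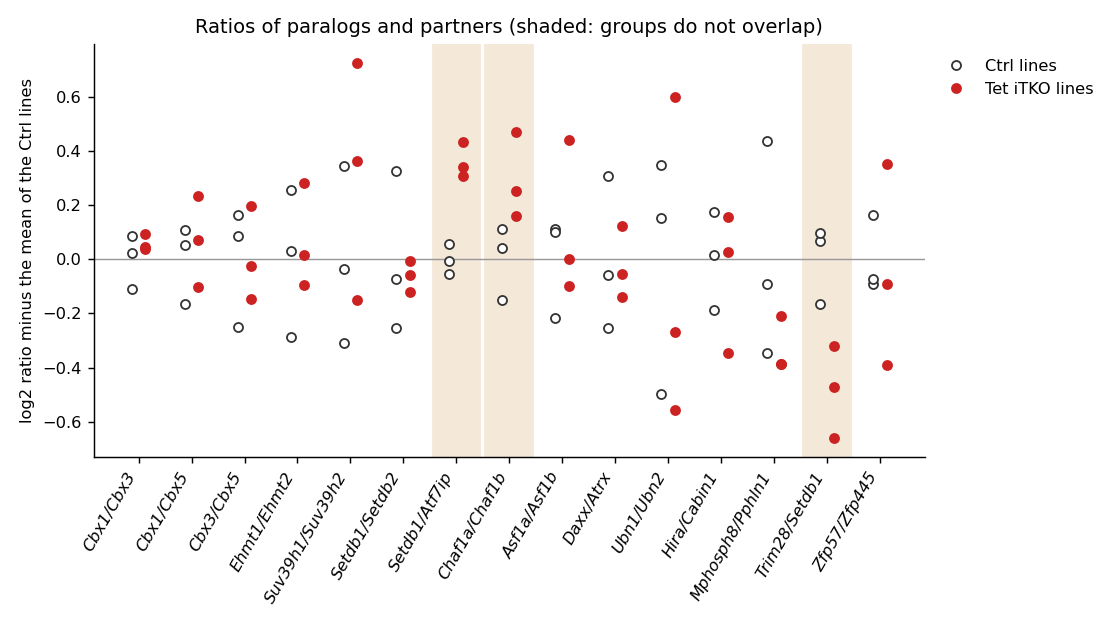
Log2 ratio of normalized counts of 15 pairs of silencing factors in each line, minus the mean of the *Ctrl* lines. Open points are *Ctrl* lines and filled points *Tet iTKO* lines; in the 3 shaded pairs, *Setdb1* to *Atf7ip*, *Chaf1a* to *Chaf1b* and *Trim28* to *Setdb1*, the groups do not overlap.

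Companion genes of the same pathways were counted from a list of 43, of which 40 reached the minimum. Of these, 7 were higher and 15 lower, or 17.5% and 37.5% against 16.4% and 18.4% of all genes, and their median size of change was 0.27. Their median level in *Ctrl* was 510 normalized counts, against 137 over all genes tested. Among genes with a mean of at least 50, 16.5% were higher and 23.4% lower. Of the HUSH, MORC and SETDB1 partners, 3 of 5 were lower. *Morc1*, for a MORC ATPase of the male germ line, had 646, 592 and 499 in *Ctrl* and 309, 316 and 285 in *Tet iTKO* (log2 fold change -0.92, limma adjusted p = 1.5e-09). *Resf1*, for a SETDB1 partner that silences retroviruses, was at -0.33 (limma adjusted p = 0.0033), and *Tasor*, for the HUSH scaffold, at -0.29 (limma adjusted p = 0.037). *Morc1* and *Resf1* passed after the GC and length correction, and *Tasor* did not (-0.26).

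All 5 DNA methylation genes passed, 3 as higher (60%, against 16.4% of all genes) and 2 as lower (40%, against 18.4%). Their median level in *Ctrl* was 1465 normalized counts, against 137 over all genes tested. After the GC and length correction 0 were higher (against 12.2% of all genes) and 3 lower (against 13.2%). *Dnmt3l*, for the cofactor of de novo methylation, had 901, 871 and 776 in *Ctrl* and 568, 599 and 641 in *Tet iTKO* (log2 fold change -0.49, limma adjusted p = 3.8e-06). *Uhrf1*, for the factor that guides DNMT1 to replicated DNA, was at -0.15 (limma adjusted p = 0.025). *Dnmt1*, *Dnmt3a* and *Dnmt3b* were higher, at 0.21, 0.25 and 0.24 (limma adjusted p = 0.0088, 0.0012 and 0.0003), but at -0.06, -0.19 and 0.05 after the GC and length correction. *Dnmt3l* (-0.41) and *Uhrf1* (-0.30) were lower after it too. *Dnmt3a* then passed as lower (limma adjusted p = 0.016), and with the level added it was at 0.01. *Dnmt3b* passed as higher with the level added (0.15, limma adjusted p = 0.024), and *Dnmt1* did not pass there (0.08).

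Of 4 SUMO pathway genes, 2 were lower (50%, against 18.4% of all genes) and 1 higher (25%, against 16.4%). *Sumo3*, for a modifier, had 1888, 1853 and 1985 in *Ctrl* and 1282, 1220 and 1280 in *Tet iTKO* (log2 fold change -0.60, limma adjusted p = 2e-10). All *Tet iTKO* lines lay below all *Ctrl* lines. *Uba2*, a subunit of the activating enzyme, was at -0.41 (limma adjusted p = 1.4e-07), and *Pias1*, for a SUMO ligase, at 0.47 (limma adjusted p = 0.044). After the GC and length correction *Sumo3* was at -0.55 and *Uba2* at -0.31, both past the threshold as lower, while *Pias1* stayed at 0.47 and did not pass (limma adjusted p = 0.055). *Sae1*, for the other subunit of the activating enzyme, had 1379, 1516 and 1447 in *Ctrl* and 1564, 1527 and 1627 in *Tet iTKO*. Its groups did not overlap, and the log2 fold change of 0.12 did not pass (limma adjusted p = 0.11). It passed as higher after the GC and length correction (0.23, limma adjusted p = 0.0027), with the level added (0.28, limma adjusted p = 0.00024) and after quantile normalization (0.24, limma adjusted p = 0.0013).

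Of 9 TRIM28 partners, *Hdac1* (-0.22) and *Kdm1a* (-0.27) were lower and *Chd4* (0.32) higher, and the correction left only *Kdm1a* of these past the threshold (-0.30). Of 3 KRAB zinc finger genes tested, *Zfp819* had 245, 193 and 215 in *Ctrl* and 111, 107 and 147 in *Tet iTKO* (log2 fold change -0.84, limma adjusted p = 2.9e-05). *Gm15446* had 40, 12 and 37 and then 4, 12 and 20, so that a fold change of -1.30 rested on few counts and overlapping groups. Of 5 H3K9 demethylase genes, *Kdm3a* was lower (-0.34) and *Kdm4c* (0.40) and *Kdm4a* (0.70) higher, *Kdm4a* with overlapping groups. After the GC and length correction *Kdm3a* (-0.36) and *Kdm4c* (0.45) still passed, while *Kdm4a* (0.59, limma adjusted p = 0.1003) and *Gm15446* (-1.02, limma adjusted p = 0.15) did not. None of 6 partners of the germline-silencing PRC1.6 and G9a complexes passed. The histone genes *H3f3a* (-0.36) and *H3f3b* (-0.11) and the chaperone partner *Rbbp4* (-0.40) were lower (limma adjusted p = 7.4e-05, 0.041 and 1e-07), and after the correction *H3f3a* was at -0.19 and *Rbbp4* at -0.37, both still past the threshold, and *H3f3b* was at 0.08 and was not. Over all 40, 2 were higher (against 12.2% of all genes) and 12 lower (against 13.2%) after the GC and length correction.

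Of the 22 companion genes called, 9 lost their call without some line. *Tasor* did so without *Ctrl* line 1 (-0.26) or 3 (-0.27) and *Tet iTKO* line 2 (-0.17) or 3 (-0.33), and *Dnmt1* without *Ctrl* line 3 (0.18) or *Tet iTKO* line 3 (0.17). *Uhrf1* lost it without *Ctrl* line 1 (-0.14) or 3 (-0.12) and *Tet iTKO* line 1 (-0.14) or 2 (-0.14), and *Kdm1a* without *Tet iTKO* line 2 (-0.21). For *Pias1* these were *Ctrl* lines 1 (0.45) and 3 (0.38) and *Tet iTKO* lines 1 (0.40) and 3 (0.46), and for *Gm15446* *Ctrl* lines 1 (-1.003) and 3 (-1.06) and *Tet iTKO* lines 1 (-0.72) and 2 (-1.41). *Kdm4a* depended on *Ctrl* lines 2 (0.70) and 3 (0.40) and *Tet iTKO* lines 1 (0.50) and 3 (0.73), *Kdm4c* on *Ctrl* line 2 (0.29), and *H3f3b* on *Ctrl* lines 2 (-0.08) and 3 (-0.11) and *Tet iTKO* lines 1 (-0.08) and 2 (-0.12). *Morc1*, *Sumo3*, *Zfp819* and *Dnmt3l* passed in all 6 fits that left out a line.

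**Figure D5:**
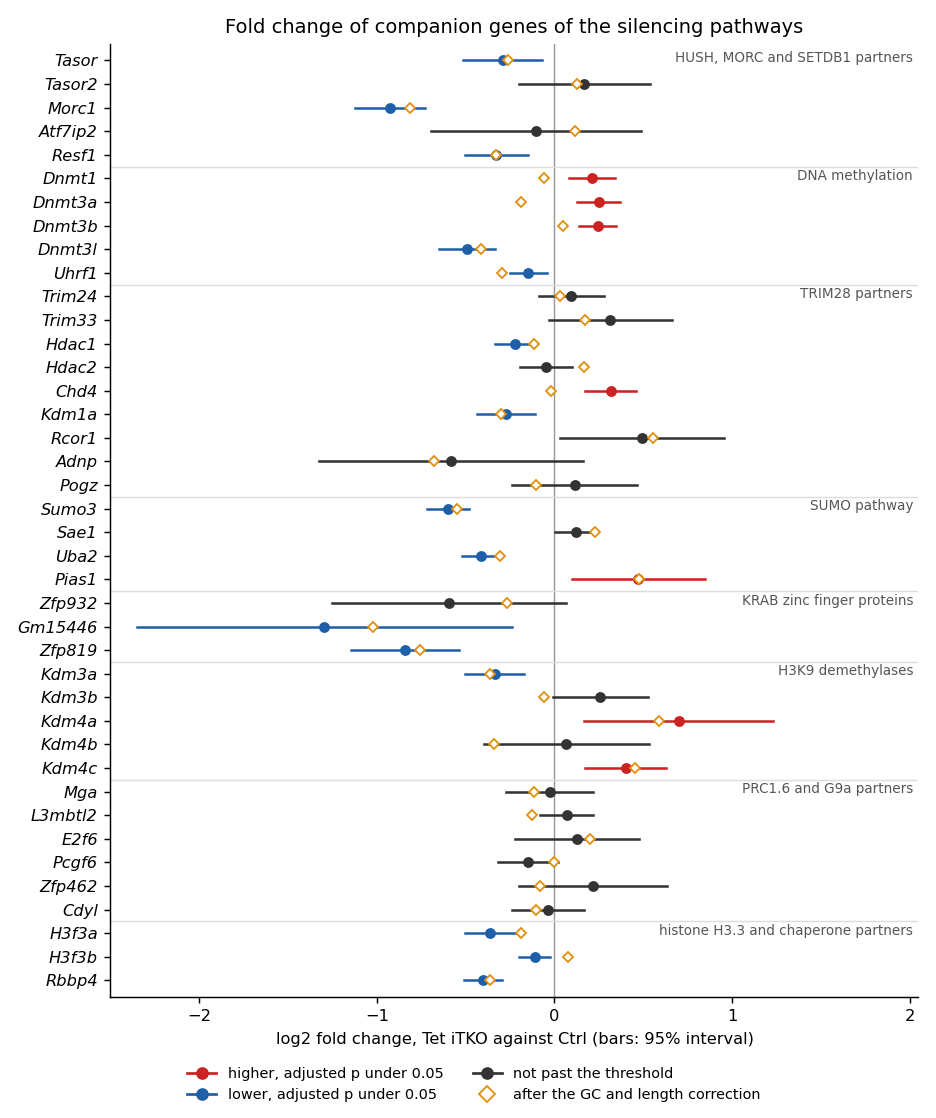
Log2 fold change, *Tet iTKO* against *Ctrl*, of 40 companion genes of the silencing pathways (filled points) with its 95% interval (bars), in the order of their roles, and the value after the GC and length correction (open diamonds). *Morc1* at -0.92 and *Sumo3* at -0.60 lie far to the left with narrow intervals, and the diamonds of *Dnmt1*, *Dnmt3a* and *Chd4* lie at or below 0.

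Germline genes that are targets of H3K9 methylation and DNA methylation were listed, 11 in all, and 7 reached the minimum. Not all were silent in *Ctrl*, where *Dazl* had a mean of 232 normalized counts and *Tuba3a* of 331, against a median of 137 over all genes tested. Whether their levels reflect silencing was not tested. *Dazl*, for a germ cell RNA-binding protein, had 191, 264 and 240 in *Ctrl* and 113, 52 and 82 in *Tet iTKO* (log2 fold change -1.54, limma adjusted p = 4.3e-08). *Tuba3a* had 326, 321 and 346 and then 241, 210 and 222 (log2 fold change -0.56, limma adjusted p = 0.00011). Both passed after the GC and length correction, at -1.22 and -0.47. These were 2 of 7 lower (28.6%, against 18.4% of all genes), and none was higher (against 16.4%). The other 5 did not pass and had overlapping groups. Of them *Ddx4*, for a germ cell RNA helicase, had 84, 99 and 37 and then 85, 79 and 110 (log2 fold change 0.41). *Taf7l*, for a germ cell transcription factor subunit, had 22, 8 and 12 and then 13, 25 and 10 (0.19). *Mael* (-0.37), *Stk31* (-0.01) and *Slc25a31* (-1.12) had negative values. Below the minimum, *Tex101* had 6, 13 and 2 and then 0, 1 and 0, and *Asz1* 2, 14 and 7 and then 0, 1 and 0. *Tuba3b* and *Wfdc15a*, also below it, had overlapping groups. The 11 genes summed to 816 to 906 in *Ctrl* and 555 to 600 in *Tet iTKO*. Retroelement transcripts themselves were not analysed here.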

How the data were processed

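RNA-Seq values of 3 *Ctrl* and 3 *Tet iTKO* mESC lines were analysed. The authors aligned paired reads of 50 bases with STAR (unique alignments), counted them per gene with HTSeq 0.7.1 and divided them by DESeq2 1.26.0 size factors in R 3.5.2. The submitters' processing notes list mm9. Counting used the stranded option, although Smart-Seq2 keeps no strand, so opposite-strand genes that overlap cannot be told apart. The deposited values are a score, namely normalized counts rounded to whole numbers, and so no count model was used.

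Groups were compared with limma 3.58.1 (R 4.3.3; lmFit, eBayes with a trend) on log2(value + 1) where the mean over the libraries reached 10, and p-values were adjusted after Benjamini-Hochberg over all genes tested. Fold changes are on that scale and understate those of low genes. The labels number replicates and do not name a line for each library. The study states 3 embryos per genotype for all experiments, and describes the RNA-Seq data as 3 independent experiments. Each library was taken as 1 line here, and the p-values measure the spread between these 6 libraries. The correction subtracted a loess fit (span 0.3) of each library's deviations on transcript GC content and log2 length. Symbols, overlaps and representative transcripts came from GENCODE M21 (GRCm38), which paired 20775 of 22380 identifiers. Tests were tried on simulated data. Same-numbered lines did not deviate together (r of 0.0007, -0.0054 and -0.0031). Ratios were tested with SciPy 1.17.1, and tables were handled with pandas 2.3.3 (NumPy 2.4.6, Python 3.11.15).

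The 39 factors and all lists were chosen with earlier results of these data known. All 39 are named, and of the other lists, mainly genes that passed. Of the companion list, 2 genes are not reported here and were left out of its counts. Alternatives were pseudocounts of 0.5 and 4, no filter, a mean of at least 50, trimmed means of M values, quantile normalization, no variance trend, a replicate block, the corrections, and fits without each line.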

Additional observations from a re-analysis of the deposited data

How the results depend on the processing

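Of the 39 factors, *Setdb1* kept its call in all 17 alternatives and *Hells* in all but the fit with no trend of variance. The number of factors higher was 2 and lower 5 in the fit reported. It was 1 and 2 with no filter, 1 and 8 after trimmed means of M values, 7 and 1 after quantile normalization and 1 and 0 with no trend of variance, and without each line in turn it ran from 1 to 4 higher and from 1 to 5 lower. Over all genes, the fit with no trend of variance called 1075 higher and 1217 lower, against 1731 and 1934. Of all genes called, 47.2% were higher in the fit reported and 49.3% with no filter. The share was 43.6% after trimmed means of M values, 50.5% after quantile normalization and 46.9% with no trend of variance. Without each line it ran from 44.3% to 48.9%. The median log2 fold change of the factors was 0.05, became -0.073 after the GC and length correction, alone or with the replicate block, and -0.0056 with the level added, and was -0.011 to 0.065 without each line. The number of ratios that did not overlap rose from 3 to 5 after the correction and was 3 to 4 without each line. Some factors that did not pass in the fit reported passed elsewhere with the opposite sign. These were *Ehmt2* (-0.36) and *Cabin1* (-0.34) after the correction, with or without the block. *Cbx1* (0.17) did so after the correction with the block, and *Trim28* (0.15) after quantile normalization. Only 2 factors, *Trim28* and *Cbx1*, were called both ways in different settings. The cause was not tested. With the replicate block alone, 2 factors were higher and 6 lower, *Cbx5* being added (limma adjusted p = 0.026), and the correction with the block gave 3 and 6. The 95% intervals of *Setdb2*, *Lrif1*, *Zfp809*, *Suv39h1*, *Sumo2* and *Smchd1* allow changes of over 1.5-fold.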
